A study of Mus with 96 samples.

Results

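The 48 Hep-Bmal1WT livers of a series of 96 were compared between chow and a choline-deficient high-fat diet (cdHFD), with 24 mice on each diet. Libraries were taken by genotype and diet as their titles give them. Each diet held 4 mice at each of 6 Zeitgeber times (ZT2, 6, 10, 14, 18 and 22, counted in hours from lights on). There were 12 males and 12 females on chow, and 13 males and 11 females on cdHFD, since the cdHFD group at ZT14 had 3 males and 1 female. Hep-Bmal1WT mice carried floxed Bmal1 (Arntl) alleles without the Alb-driven Cre, on a C57BL/6J background, and were littermates of the hepatocyte knockouts. They were 8 to 10 weeks old when they entered the experiment and lived under 12 h of light and 12 h of darkness with free access to food. Chow (NC) provided 27% protein, 14% fat and 59% carbohydrate, whereas the cdHFD provided 9% protein, 60% fat and 31% carbohydrate with 2% cholesterol and 0.17% methionine, and was fed for 2 weeks.

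Choline is needed for phosphatidylcholine, the phospholipid that coats very-low-density lipoprotein, and a liver without it retains triglyceride. Together with fat and cholesterol, this diet is used to bring mice quickly to steatohepatitis, in which fat-laden hepatocytes, inflammatory macrophages and matrix-producing stellate cells occur side by side. The hepatic clock is a transcriptional loop in which BMAL1 and CLOCK drive their own repressors, and feeding time can reset it. The comparison therefore asked which transcripts the diet changed, whether they changed around the day, and which rhythms were gained, lost or shifted.

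Between 1861740 and 9095237 reads per chow library were counted on genes (median 5769262.5), and between 5264167 and 7394124 per cdHFD library (median 6213499.5). In the shallowest chow and cdHFD libraries, 3 counts correspond to 1.61 and 0.57 CPM (reads of a gene relative to the scaled library total), and values below these levels rest on very few reads. Levels are given as CPM after TMM scaling, which sets libraries to a common level over the bulk of genes. All 48 libraries matched their sex label. The chow libraries came from plate columns 1 to 3 and the cdHFD libraries from columns 4 to 6, so diet and plate column cannot be told apart. Within each diet, ZT2 and ZT6 shared a column, as did ZT10 and ZT14, and ZT18 and ZT22. Differences between these pairs of times, and so part of any rhythm, cannot be told apart from plate column either. Clock genes lay nearer to the Hep-Bmal1KO libraries of the same diet and ZT in 4 chow and 7 cdHFD libraries, and 2 of each also did so on other genes (chow ZT6 replicate 2, chow ZT18 replicate 4, cdHFD ZT10 replicate 3 and cdHFD ZT14 replicate 1). All were kept, and several counts and the median clock phase difference are also given without them. Daily profiles and the other values include them unless stated.

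The livers differed in their cellular markers. The summed level of 5 hepatocyte markers (albumin, transthyretin, Apoa1, Serpina1c and Cyp2e1) ranged from 99800 to 203000 CPM in chow and from 52300 to 88900 CPM in cdHFD. For 5 Kupffer cell markers the sums were 109 to 256 CPM in chow against 424 to 1080 CPM in cdHFD. For 5 recruited macrophage markers (Trem2, Gpnmb, Cd9, Itgax and Ccr2) they were 22.7 to 94.5 against 150 to 314 CPM. Most of this sum in chow (median 40 CPM) was Cd9, with means of 39.7 ± 17.2 CPM in males and 40.2 ± 18.7 CPM in females. In cdHFD, Cd9 averaged 103 ± 23.6 and 114 ± 23.7 CPM. The 4 neutrophil markers summed to 4.75 to 27.3 CPM in chow and 52.7 to 108 CPM in cdHFD. Under TMM the ranges of these 4 sums did not overlap between the diets, and all 5 hepatocyte markers fell while all 14 of the others rose. The hepatocyte ranges overlap when the TMM factors, given below, are left out. Stellate cell (43.8 to 143 against 86.4 to 144 CPM) and sinusoidal endothelial sums (65.7 to 222 against 79.1 to 222 CPM) overlapped, as did cholangiocyte sums (6 to 38.5 against 11.1 to 44.7 CPM). In bulk tissue, a change in the number of cells of a type and a change in their RNA content cannot be told apart.

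Of 15548 genes tested, 4442 (28.6%) were higher and 4170 (26.8%) lower in cdHFD at a Benjamini-Hochberg adjusted p under 0.05 in the quasi-likelihood test of edgeR, 8612 (55.4%) in all. Without the 11 libraries whose clock genes lay nearer the other genotype these counts were 4177 and 3479. The median log2 fold change over all genes was 0.0135. Changes of at least 1 on the log2 scale were more often upward, with 2069 genes higher and 952 lower, and so were changes of at least 3 (194 higher, 108 lower). The balance of directions depended on the scaling: TMM factors were 0.783 to 0.929 in chow and 1.12 to 1.28 in cdHFD, and with library totals alone 9954 genes were higher and 1247 lower with a median of 0.499. Below, a change is therefore one relative to the bulk of genes under TMM, and where the balance of a list described here turned under library totals, both counts are given. Under TMM, ranges of the 24 chow and 24 cdHFD livers did not overlap for 577 genes (3.71%). Of these, 341 (2.19%) were higher and 236 (1.52%) lower in cdHFD. Ranges of single genes were not compared under library totals.

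**Figure D1:**
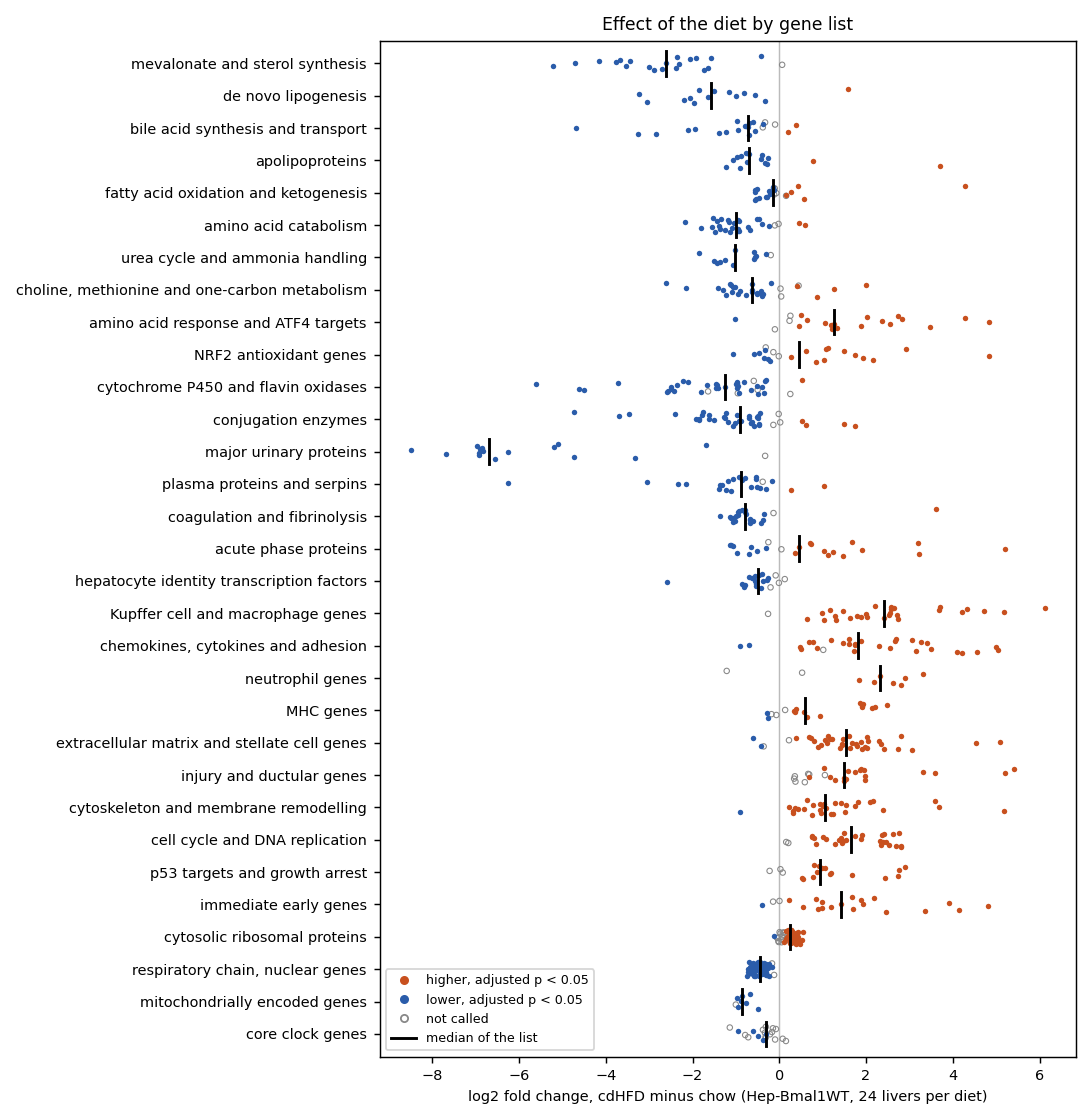
Log2 fold change between cdHFD and chow (x axis) of the measured members of 31 gene lists (y axis), with filled points for genes past the adjusted p threshold of 0.05, open points for the others and a bar at the median of each list. The medians lay between -6.69 for the major urinary proteins and 2.42 for the macrophage genes.

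The 12 largest increases and decreases were taken among called genes with one direction at all 6 ZTs and a mean of at least 5 CPM in the diet where the gene was higher. The increases included genes of injured epithelium and of macrophages. Areg, an EGF receptor ligand made by injured epithelium, had 3 counts in all 24 chow libraries together (21 of them at 0) and 940 counts in cdHFD, with at least 5 in every library. Lcn2 (chr2:32384637-32387739 in GRCm38.p6, RefSeq), a siderophore-binding acute phase protein, ranged from 10.4 to 67.1 CPM in chow with a median of 19, and from 257 to 1743 CPM in cdHFD with a median of 812. Its lowest cdHFD liver was above its highest chow liver, and the log2 fold change was 5.19 ± 0.21 (SE; edgeR adjusted p = 4.3e-24). Ly6d, a surface protein of epithelia, was at 1.15 to 9.64 CPM in chow (median 3.62) and 100.2 to 279 CPM in cdHFD (median 176). Mmp12, the macrophage elastase, had a median of 1.7 CPM in chow (0.434 to 4.39) and of 128 CPM in cdHFD (76.5 to 210.1). Neither gene overlapped between the diets, with log2 fold changes of 5.41 ± 0.19 (edgeR adjusted p = 1.8e-26) and 6.12 ± 0.14 (edgeR adjusted p = 7.6e-37). Sprr1a, Gpnmb, Mmp13, Ccl7, Chil3, Ubd, Adam8 and the vomeronasal receptor gene Vmn2r3 completed the 12 largest increases, and all 12 but Vmn2r3 had separate ranges. The largest decreases were in the major urinary proteins Mup1, Mup7, Mup9, Mup11, Mup14, Mup15, Mup16, Mup17 and Mup19, together with the sulfotransferase Sult3a1, the serpin pseudogene Serpina4-ps1 and Hsd3b5 of steroid metabolism. Their log2 fold changes lay between -8.48 (Mup15) and -6.55 (Mup1), and none had separate ranges, since these genes varied widely among chow livers. Hsd3b5 ranged from 0.512 to 324 CPM in chow with a median of 37, and from 0 to 2.38 CPM in cdHFD with a median of 0.662. Part of the spread lay between the sexes: Hsd3b5 averaged 200 ± 101 (SD) CPM in chow males and 9.14 ± 25.8 CPM in chow females. These Mup genes were also higher in chow males by their means. Mup11 went from 4710 ± 3300 to 15.5 ± 4.09 CPM in males, and from 41.1 ± 20.9 to 10.5 ± 2.6 CPM in females.

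**Figure D2:**
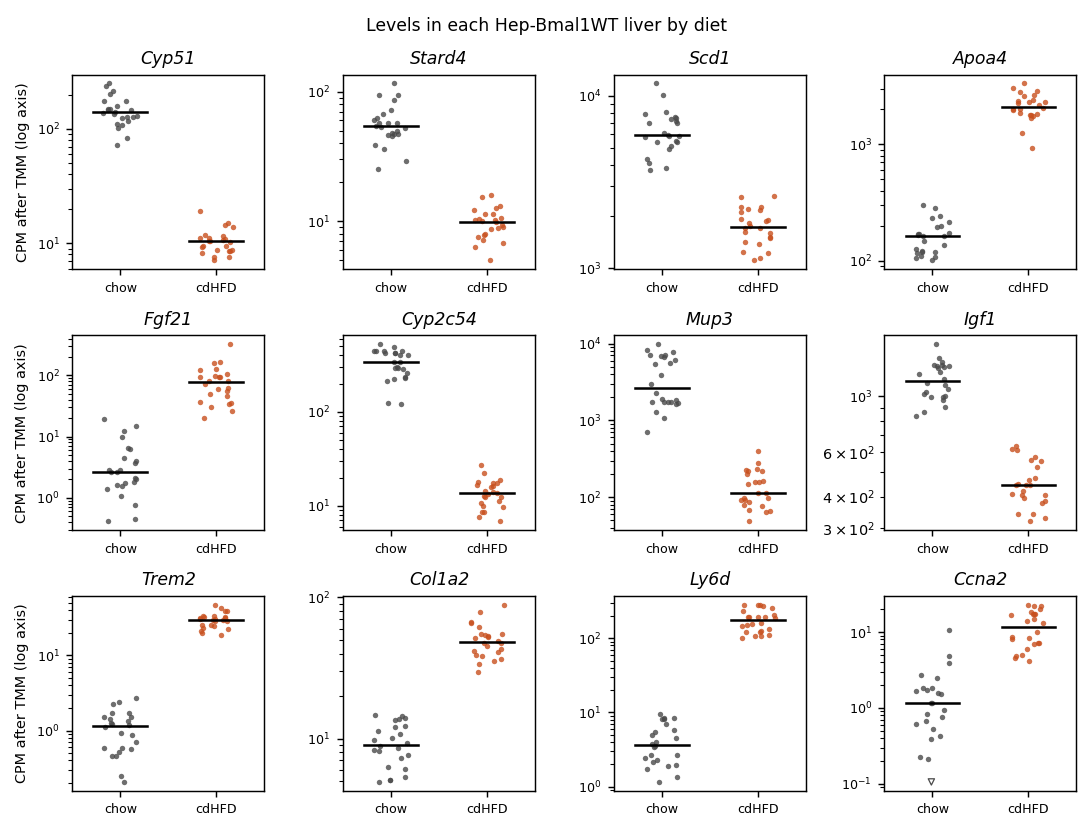
Level of 12 genes in each Hep-Bmal1WT liver (CPM after TMM, log axis) by diet, with a bar at the median of the 24 livers and an open triangle, drawn below the lowest value, for a library at 0. All genes shown except Ccna2 had ranges that did not overlap between chow and cdHFD.

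Almost all genes of sterol synthesis were lower. Of 21 enzymes from acetyl-CoA to cholesterol, 20 were lower in cdHFD and none higher, with a median log2 fold change of -2.62 beside 0.0135 over all genes, and 16 had ranges that did not overlap. Cyp51, which demethylates lanosterol (chr5:4080674-4104697), ranged from 72.5 to 250.3 CPM in chow with a median of 139.7, and from 7.13 to 19.1 CPM in cdHFD with a median of 10.4. No cdHFD liver reached the lowest chow liver, and the log2 fold change was -3.77 ± 0.11 (SE; edgeR adjusted p = 1.1e-32). Tm7sf2, a sterol reductase, fell from medians of 136 to 7.05 CPM, and Sc5d, a sterol desaturase, from 631 to 166 CPM. Genes of sterol uptake and its control were less uniform, with 8 of 13 lower and 3 higher, against 6 lower and 7 higher under library totals. Stard4, a cytosolic sterol carrier, was at 25.1 to 116 CPM in chow (median 54) and 4.99 to 15.9 CPM in cdHFD (median 9.89). Its ranges were apart, with a log2 fold change of -2.52 ± 0.089 (edgeR adjusted p = 2.5e-32), whereas Mylip, a ubiquitin ligase induced through LXR, and the selective uptake receptor Scarb1 rose (1.1 and 0.53 on the log2 scale). Abcg1, a sterol exporter induced through LXR, rose from 6.89 to 32.6 CPM with separate ranges (2.17 ± 0.094, edgeR adjusted p = 4.5e-28), and Soat1, which esterifies cholesterol, rose by 2.18 on the log2 scale. In the LXR and efflux list as a whole, 4 of 13 were higher and 5 lower, and under library totals 9 were higher and 2 lower.

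Fatty acid synthesis was lower as well. Of 14 lipogenic genes, 13 fell and 1 rose (median log2 fold change -1.58), and under library totals 19 of 21 sterol and 11 of 14 lipogenic genes were still lower. Fatty acid synthase (Fasn) ranged from 175 to 975 CPM in chow with a median of 489, and from 41.9 to 403 CPM in cdHFD with a median of 118, which overlapped, and the log2 fold change was -2.06 ± 0.16 (SE; edgeR adjusted p = 1.7e-14). Acss2, which activates acetate, went from a median of 140 to 17 CPM with no overlap, and Acly, which makes cytosolic acetyl-CoA from citrate, from 236 to 62.4 CPM. Scd1, the main hepatic stearoyl-CoA desaturase, had a median of 5909 CPM in chow (3697 to 11830) and of 1732 CPM in cdHFD (1114 to 2618), which were apart (-1.84 ± 0.11, edgeR adjusted p = 1.0e-18). Its paralog Scd2 was the 1 member that rose, from 5.62 to 19.2 CPM (1.59 ± 0.2, edgeR adjusted p = 6.3e-09). Thrsp (Spot14), a carbohydrate-induced regulator of lipogenesis, was lower at every ZT, with log2 fold changes from -0.76 to -5.28 and of -3.24 ± 0.35 (SE; edgeR adjusted p = 1.1e-10) over the day. Elovl7, a long-chain elongase, moved the other way, from 68 counts over the chow livers to 2714 over the cdHFD livers (0.402 to 12.6 CPM), with separate ranges. The carbohydrate-sensing factor Mlxipl (Chrebp) fell from 99.4 to 43.9 CPM (-1.17 ± 0.1, edgeR adjusted p = 3.5e-14).

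Some genes of fat storage rose, and abundant fatty acid carriers fell. Cidec, a lipid droplet protein that makes droplets coalesce, ranged from 0.5 to 15 CPM in chow with a median of 3.21, and from 32 to 103 CPM in cdHFD with a median of 58.2, and Hilpda, a droplet inhibitor of lipolysis, went from 4.17 to 15.1 CPM. Both were separate, with log2 fold changes of 3.79 ± 0.26 (edgeR adjusted p = 1.1e-16) and 1.74 ± 0.11 (edgeR adjusted p = 1.5e-20). Plin2, the main droplet coat of steatotic hepatocytes, was higher by 0.86 ± 0.078 (edgeR adjusted p = 4.7e-14) with overlapping ranges. In all, 7 of 17 droplet proteins and lipases rose and 6 fell, against 11 and 2 under library totals. Cd36, a fatty acid transporter of the cell surface, had a median of 66.5 CPM in chow (22.7 to 95.3) and of 199 CPM in cdHFD (145 to 273) without overlap, and lipoprotein lipase (Lpl) rose from 26.1 to 195 CPM (2.38 ± 0.32, edgeR adjusted p = 2.8e-08), although its highest chow liver was at 527 CPM. Adipocytes also make Lpl, and the sum of the adipocyte markers reached 76.2 CPM in chow and 64.6 CPM in cdHFD with medians of 0.308 and 0.146; its part in this result was not tested. Fabp1, the most abundant cytosolic fatty acid carrier, fell from 11390 to 3625 CPM, and Acsl1, which activates fatty acids, from 766 to 237 CPM. In the list of fatty acid uptake, 6 of 21 were higher and 11 lower, against 10 and 9 under library totals. Apoa4, an apolipoprotein that rises with hepatic fat, was at 101 to 301 CPM in chow (median 163) and 935 to 3332 CPM in cdHFD (median 2098). No chow liver reached the lowest cdHFD liver, and the log2 fold change was 3.69 ± 0.14 (SE; edgeR adjusted p = 1.9e-25). Of the other apolipoproteins, Apoc2 rose (0.78 ± 0.17, edgeR adjusted p = 5.9e-05) and 13 of 15 fell, among them Apoa2 (from 16010 to 6881 CPM), Apoc3 (8131 to 3943 CPM) and Apoe (34330 to 27750 CPM). Under library totals 5 apolipoproteins were higher and 8 lower, and Apoe was among those that turned (0.219).

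Genes of fatty acid oxidation had a median near 0, and their direction turned with scaling: 5 of 22 genes were higher and 13 lower with a median of -0.15, against 16 higher and none lower under library totals. Fgf21 (chr7:45613890-45615490), a hormone of fasting and amino acid restriction that is counted in this list, ranged from 0.415 to 19.6 CPM in chow with a median of 2.61, and from 19.9 to 323 CPM in cdHFD with a median of 76.9. Every cdHFD liver was above every chow liver, at 4.28 ± 0.37 (SE; edgeR adjusted p = 2.1e-13) on the log2 scale. Cpt1a, the gate of mitochondrial fatty acid entry, rose by 0.56 ± 0.074 (edgeR adjusted p = 2.9e-09), and Acot2, a mitochondrial thioesterase regulated by PPARα, from 12.7 to 79.5 CPM with separate ranges. In the peroxisomal and PPARα list 8 of 22 were higher and 6 lower, against 15 and 1 under library totals. Bile acid genes fell, with 16 of 21 lower and 2 higher (median -0.73). Cyp8b1, which sets the share of cholic acid, was at 63.3 to 461 CPM in chow (median 258) and 2.13 to 56.2 CPM in cdHFD (median 25.5). Slc27a5, which activates bile acids for conjugation, and Slc10a1 (NTCP), which takes bile acids up from blood, went from medians of 748 to 170.3 CPM and 545 to 140.1 CPM. None of these 3 genes overlapped between the diets. Of glucose genes 14 of 21 fell and 1 rose (median -0.56), including Pck1 of gluconeogenesis (-1.04 ± 0.13, edgeR adjusted p = 8.9e-09), while under library totals 7 rose and 7 fell. Pyruvate kinase of the muscle type (Pkm) rose from 11.5 to 47.5 CPM, and G6pdx of the pentose phosphate pathway from 5.06 to 11 CPM, both with separate ranges.

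Genes of amino acid and methyl group metabolism mostly fell, while most targets of the transcription factor ATF4 rose. In amino acid catabolism 26 of 30 genes were lower and 2 higher, with a median of -1. Haao of tryptophan breakdown went from 346 to 95.7 CPM and Tdo2 from 1073 to 402 CPM. In the urea cycle and ammonia list 12 of 13 were lower and none higher (median -1.02). Otc, the ornithine transcarbamylase, ranged from 594 to 860.4 CPM in chow with a median of 734, and from 201 to 340 CPM in cdHFD with a median of 269. Its ranges and those of the glutaminase Gls2 (326 to 97.6 CPM) were apart, with log2 fold changes of -1.44 ± 0.049 (edgeR adjusted p = 5.8e-33) and -1.85 ± 0.083 (edgeR adjusted p = 7.1e-26). Of 30 genes for choline, methionine and one-carbon metabolism, 23 fell and 4 rose (median -0.63). Gnmt, the main hepatic consumer of S-adenosylmethionine, had a median of 1396 CPM in chow (387 to 2153) and of 279.5 CPM in cdHFD (112 to 461), and Sardh, which breaks down sarcosine from the choline pathway, went from 484 to 199 CPM. Gnmt ranges overlapped, whereas those of Sardh did not, at -2.14 ± 0.1 (edgeR adjusted p = 9.2e-24) and -1.31 ± 0.064 (edgeR adjusted p = 8.8e-26). The 4 that rose were Mat2a, the S-adenosylmethionine synthetase of cells other than mature hepatocytes (58.2 to 134 CPM, 1.25 ± 0.069, edgeR adjusted p = 3.0e-23), Mthfd2 of mitochondrial folate metabolism (1.83 to 9.2 CPM), the methionine synthase Mtr (3.44 to 4.89 CPM) and the choline kinase Chka (43.5 to 107 CPM). The liver form Mat1a fell (-0.62 ± 0.11, edgeR adjusted p = 2.4e-06). Its means went from 1700 ± 210 to 1490 ± 165 CPM in males and from 2680 ± 396 to 1360 ± 448 CPM in females.

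Targets of ATF4, the factor translated when amino acids are short, were higher in 17 of 21 cases and lower in 1 (median 1.26). What raised them was not tested. Psat1, for serine synthesis, went from 0.665 to 8.65 CPM, and Atf5 from 146 to 383 CPM, at 3.48 ± 0.23 (edgeR adjusted p = 6.2e-19) and 1.21 ± 0.14 (edgeR adjusted p = 4.8e-10). Slc7a11, the cystine importer, had 8 counts in the chow livers together and 429 in the cdHFD livers. The member that fell was Cth, which makes cysteine (-1.01 ± 0.11, edgeR adjusted p = 7.0e-11). Genes of the unfolded protein response, in contrast, were lower in 18 of 22 cases and higher in none (median -0.34), a direction that turned under library totals (9 higher, 2 lower). NRF2 targets were divided, with 12 of 22 higher and 7 lower: Srxn1, which repairs peroxiredoxins, ranged from 15.6 to 71.5 CPM in chow with a median of 37.2, and from 81.1 to 389 CPM in cdHFD with a median of 127, and heme oxygenase 1 (Hmox1) rose from 21.5 to 99.1 CPM, while Gsta3 fell from 3052 to 1220 CPM. The log2 fold changes were 1.93 ± 0.15 (edgeR adjusted p = 1.2e-14), 2.16 ± 0.16 (edgeR adjusted p = 2.2e-15) and -1.08 ± 0.069 (edgeR adjusted p = 2.9e-20). Gsta, Gstm and Cyp4a genes have close copies between which 3′ reads may be misassigned.

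Detoxification genes were lower. Of 39 cytochrome P450 and flavin oxidase genes, 33 fell and 1 (Fmo5, 0.53 ± 0.12, edgeR adjusted p = 2.5e-04) rose, with a median of -1.25, and of 40 conjugating enzymes 33 fell and 4 rose (median -0.91). Cyp2c54 ranged from 121 to 525 CPM in chow with a median of 341, and from 6.88 to 27 CPM in cdHFD with a median of 13.6, and Cyp2f2, a periportal P450, was at 500.1 to 1667 CPM in chow (median 867) and 81.5 to 262 CPM in cdHFD (median 197). Ces3b, a carboxylesterase, had a median of 428 CPM in chow (164 to 657) and of 15.6 CPM in cdHFD (6.64 to 28.4). For each of these 3 genes every cdHFD liver was below every chow liver, at -4.62 ± 0.16 (edgeR adjusted p = 1.4e-26), -2.36 ± 0.11 (edgeR adjusted p = 2.3e-22) and -4.73 ± 0.15 (edgeR adjusted p = 4.0e-28). Cyp3a11 and Cyp2e1, the P450 genes with the highest counts in chow, had log2 fold changes of -1.44 ± 0.17 (edgeR adjusted p = 7.6e-10) and -0.95 ± 0.1 (edgeR adjusted p = 1.1e-11). Means of Cyp3a11 went from 9570 ± 3090 to 2300 ± 572 CPM in males and from 4220 ± 1200 to 2680 ± 645 CPM in females. The 4 conjugating enzymes that rose were Gstm3 (239.5 to 783 CPM), Gsta1 (13 to 88.7 CPM), Mgst3 and Gstm2.

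Of 15 genes of the growth hormone and IGF axis 9 were lower and 2 higher (median -0.72), against 6 lower and 6 higher under library totals. Igf1, the hepatic hormone that growth hormone drives, was at 833 to 1603 CPM in chow (median 1149) and 320.1 to 636 CPM in cdHFD (median 443), and the growth hormone receptor (Ghr) at 212 to 342 CPM in chow (median 274) and 73.8 to 113 CPM in cdHFD (median 93.8). Neither overlapped, at -1.36 ± 0.068 (edgeR adjusted p = 3.7e-25) and -1.55 ± 0.054 (edgeR adjusted p = 2.5e-32). Igfals, the partner of circulating IGF1, went from 115 to 32.7 CPM, whereas the insulin-repressed binding protein Igfbp1 rose from 37.2 to 168 CPM (2.32 ± 0.4, edgeR adjusted p = 2.7e-06). Igfbp1 averaged 28.9 ± 19.4 and 346 ± 268 CPM in males of the 2 diets, and 94.5 ± 97.8 and 176 ± 87.3 CPM in females. Its diet effect did not pass the test of diet by sex. Of 22 sex-biased liver genes 21 were lower and none higher (median -2.98), and of 16 major urinary proteins 15 were lower and none higher (median -6.69), and under library totals 17 and 14 of them were still lower with none higher. Mup3 ranged from 700.5 to 9806 CPM in chow with a median of 2609, and from 48.9 to 397 CPM in cdHFD with a median of 115, without overlap (-4.73 ± 0.31, edgeR adjusted p = 5.4e-17). Mup15 varied widely in chow, from 0.377 to 1615 CPM, and reached at most 1.28 CPM in cdHFD. The Mup genes are near-identical copies on one chromosome, so the share of each is uncertain. Mup20 fell over all mice (-1.7 ± 0.6, edgeR adjusted p = 0.014), and its change differed between the sexes (edgeR adjusted p for diet by sex = 3.3e-09), with means of 23700 ± 7680 (SD) and 5240 ± 1580 CPM in males of the 2 diets, and of 462 ± 578 and 1790 ± 778 CPM in females.

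The test of diet by sex named 453 genes (2.91%) at an edgeR adjusted p under 0.05. They included 13 of the 22 sex-biased genes, 16 of the 39 oxidases, 12 of the 40 conjugating enzymes and 11 of the 25 complement genes. The smallest p-values were those of Gm4956, Cyp4a12a and Gstp1. Cyp4a12a, a male-specific fatty acid hydroxylase, averaged 358 ± 106 CPM in chow males and 8.54 ± 4.41 CPM in cdHFD males, against 1.67 ± 1.45 and 1.09 ± 0.479 CPM in females. The male minus female difference of its diet effect was -5.06 ± 0.47 (edgeR adjusted p = 2.3e-09). Gstp1, a glutathione transferase, fell in males from 5260 ± 2210 to 1690 ± 356 CPM, while the female means were 661 ± 257 and 1030 ± 285 CPM (difference -2.29 ± 0.22, edgeR adjusted p = 2.3e-09). Igf1, which was higher in chow females (1300 ± 135 CPM) than in chow males (1020 ± 132 CPM) by its means, was at 423 ± 79 and 482 ± 102 CPM under cdHFD (edgeR adjusted p for diet by sex = 0.0011).

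Secreted proteins of the hepatocyte fell, with 21 of 24 plasma proteins and serpins, 21 of 23 coagulation genes and 21 of 25 complement genes lower. Albumin (Alb) ranged from 47870 to 158800 CPM in chow with a median of 104900, and from 36140 to 66790 CPM in cdHFD with a median of 51020, with overlap (-1.12 ± 0.1, edgeR adjusted p = 7.8e-14). Serpina1d, one of several near-identical antitrypsin genes, went from 6086 to 1314 CPM, and the fibrinogen chain Fgb from 4130 to 1836 CPM (-1.11 ± 0.077, edgeR adjusted p = 5.9e-18). Hemopexin (Hpx), the heme scavenger, rose against this trend from 3797 to 8539 CPM (1.03 ± 0.078, edgeR adjusted p = 2.2e-16). The 4 complement genes that rose were C1qa, C1qb, C1qc and Cfp, which macrophages make, and C1qb was at 37.4 to 118 CPM in chow (median 84) and 205 to 446 CPM in cdHFD (median 333) without overlap. Acute phase proteins were mixed, with 13 of 23 higher and 8 lower. Haptoglobin (Hp) rose from 2328 to 5910 CPM and Saa3 from 15.2 to 165 CPM (1.25 ± 0.11, edgeR adjusted p = 2.3e-13 and 3.22 ± 0.22, edgeR adjusted p = 1.2e-16), while C-reactive protein (Crp) and the 3 fibrinogen chains fell. Of 20 transcription factors of hepatocyte identity 16 were lower and none higher (median -0.50), including Hnf4a (-0.81 ± 0.058, edgeR adjusted p = 2.4e-18) and Cebpa (-0.87 ± 0.11, edgeR adjusted p = 1.8e-09), but under library totals 6 were higher and 5 lower. Periportal genes fell in 15 of 18 cases (median -1.19) and pericentral genes in 8 of 17 with 3 higher (median -0.24), and under library totals 8 pericentral genes were higher and 5 lower. This difference between zones was not tested.

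Macrophage genes rose in 28 of 29 cases with none lower, at a median of 2.42, and 18 had separate ranges. Trem2, a receptor of lipid-associated macrophages, ranged from 0.207 to 2.69 CPM in chow with a median of 1.15, and from 18.9 to 46.8 CPM in cdHFD with a median of 29.9. Gpnmb, of the same cells, was at 0.854 to 8.99 CPM in chow (median 2) and 43.7 to 135 CPM in cdHFD (median 80.5), and Lgals3 (galectin-3) rose from 19.1 to 326 CPM. All chow livers lay below all cdHFD livers for these genes, with log2 fold changes of 4.71 ± 0.14 (edgeR adjusted p = 1.7e-35), 5.17 ± 0.16 (edgeR adjusted p = 3.7e-29) and 4.2 ± 0.083 (edgeR adjusted p = 2.6e-44). Markers of resident Kupffer cells rose with smaller fold changes: Clec4f from 68.3 to 135 CPM (1.02 ± 0.07, edgeR adjusted p = 2.6e-19) and Timd4 from 7.18 to 10.8 CPM (0.65 ± 0.12, edgeR adjusted p = 7.8e-06), with Cd5l at 2.42 and Marco at 2.74 on the log2 scale. Of 30 chemokine, cytokine and adhesion genes 27 rose and 2 fell (median 1.82). Ccl2, the monocyte attractant, was at 0.189 to 4.15 CPM in chow (median 1.18) and 11.2 to 46 CPM in cdHFD (median 26.7), without overlap (4.2 ± 0.16, edgeR adjusted p = 7.0e-28), and Cxcl12, made by stromal and endothelial cells, was 1 of the 2 that fell (-0.92 ± 0.064, edgeR adjusted p = 6.6e-19). Lysosome genes rose in 19 of 23 cases (median 0.60), led by Lgmn (61.1 to 222 CPM) and cathepsin D (Ctsd, 319.9 to 732 CPM).

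Genes of other immune cells also rose. Neutrophil genes rose in 7 of 9 cases, with S100a8 at a median of 4.44 CPM in chow (0.5 to 13.4) and of 32.5 CPM in cdHFD (20.01 to 50.8) (2.81 ± 0.15, edgeR adjusted p = 1.4e-20). T, NK and B cell genes rose in 12 of 23, and none fell, with Ccl5 going from 3.3 to 10.6 CPM and the immunoglobulin gene Igkc not passing the test with medians of 15.4 to 10.7 CPM (-0.15 ± 0.22, edgeR adjusted p = 0.58). In the MHC list 13 of 18 rose and 2 fell. Among class II genes, Cd74, the invariant chain, went from 114 to 400.5 CPM and H2-DMb1 from 2.38 to 15 CPM. Class I genes were divided. H2-D1 went from means of 491 ± 83.5 to 747 ± 85.8 CPM in males and 532 ± 49.4 to 843 ± 121 CPM in females. B2m and H2-K1 had log2 fold changes of -0.29 and -0.27, which became 0.197 and 0.218 under library totals. Interferon-stimulated genes rose in 21 of 31 cases with 2 lower (median 0.78), and Oas1a, a sensor of double-stranded RNA, ranged from 0.599 to 5.41 CPM in chow with a median of 2.53, and from 7.04 to 22.3 CPM in cdHFD with a median of 14.5. The macrophage and neutrophil marker sums given above moved in the same direction as these lists. The T and NK marker sum was 0.387 to 9.05 CPM in chow and 3.52 to 18.1 CPM in cdHFD, and 3 of its 4 markers rose, while the B cell sum was 0.694 to 12.2 against 2.08 to 12 CPM and none of its 4 markers passed. Their part in these results was not tested.

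Matrix and injury genes rose. Of 38 matrix and stellate cell genes 34 were higher and 2 lower (median 1.54), and 13 had separate ranges. Col1a2, a chain of fibrillar type I collagen, ranged from 4.92 to 14.7 CPM in chow with a median of 9.06, and from 29.5 to 88.2 CPM in cdHFD with a median of 48.6, and Col4a1, of basement membrane, was at 12.2 to 31.5 CPM in chow (median 17.9) and 53.2 to 104 CPM in cdHFD (median 68.4). Both were apart, at 2.41 ± 0.12 (edgeR adjusted p = 3.0e-23) and 1.92 ± 0.078 (edgeR adjusted p = 2.2e-29). Mmp13, a collagenase, had 16 counts in the chow livers and 943 in the cdHFD livers. The 2 that fell, Fn1 (fibronectin, -0.42 ± 0.078, edgeR adjusted p = 7.5e-06, and 0.0697 under library totals) and Ecm1 (-0.61 ± 0.084, edgeR adjusted p = 9.7e-09), are also made by hepatocytes. The stellate cell marker sum overlapped between the diets, and 5 of its 6 markers rose, among them Lrat and Pdgfrb by 0.73 and 1.22 on the log2 scale. Of 25 injury and ductular genes 18 rose and none fell. Anxa2, a membrane-binding annexin, went from 13.3 to 175 CPM, and keratin 18 (Krt18) from 298 to 718 CPM, while the cholangiocyte markers Krt19, Krt7 and Sox9 did not pass the test and Epcam did (1.53 ± 0.24, edgeR adjusted p = 3.1e-07). Genes of the cytoskeleton rose in 29 of 30 cases (median 1.05), with Capg from 2.85 to 37.3 CPM (3.69 ± 0.12, edgeR adjusted p = 1.3e-33). Endothelial genes were divided, with 10 of 23 higher and 6 lower: Lyve1 rose (1.46 ± 0.18, edgeR adjusted p = 1.8e-09) and Gpr182 fell (-0.39 ± 0.079, edgeR adjusted p = 2.8e-05, and 0.101 under library totals), both of the sinusoidal lining. Under library totals 18 of the 23 endothelial genes were higher and 1 lower.

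Proliferation, p53 and early response genes were also higher. In the cell cycle list 28 of 30 rose and none fell (median 1.64), and none had separate ranges. Top2a, of chromosome segregation, ranged from 0 to 4.03 CPM in chow with a median of 1.47, and from 2.89 to 22.4 CPM in cdHFD with a median of 12.3, and cyclin D1 (Ccnd1) was at 37.4 to 457 CPM in chow (median 108) and 152 to 845 CPM in cdHFD (median 365). The ranges overlapped in both, at 2.81 ± 0.19 (edgeR adjusted p = 8.6e-19) and 1.45 ± 0.18 (edgeR adjusted p = 2.7e-09). Of 18 p53 targets 15 rose and none fell (median 0.94), and Phlda3 went from 1.4 to 10.5 CPM with separate ranges (2.77 ± 0.18, edgeR adjusted p = 1.1e-19). Of 21 immediate early genes 18 rose and 1 fell (median 1.43). Atf3, a stress-induced repressor, had a median of 3.08 CPM in chow (0.231 to 8.26) and of 48.4 CPM in cdHFD (23.7 to 106) (3.9 ± 0.18, edgeR adjusted p = 1.4e-22), and Egr2 had 14 counts over the chow and 659 over the cdHFD livers. The 1 that fell was Ier2 (-0.4 ± 0.11, edgeR adjusted p = 0.0019).

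Mitochondrial genes were slightly lower. Nuclear genes of the respiratory chain were lower in 72 of 74 cases, none was higher, and the median was -0.46, and with library totals 23 were higher and 14 lower. Uqcr11, a complex III subunit, ranged from 282 to 365 CPM in chow with a median of 338, and from 171 to 255 CPM in cdHFD with a median of 200.2, and these ranges did not overlap (-0.68 ± 0.045, edgeR adjusted p = 4.0e-20). Mitochondrially encoded genes were lower in 7 of 8 cases (median -0.87), and in 6 of 8 under library totals, with mt-Nd2 going from 10210 to 5248 CPM. Proteins of the mitochondrial ribosome (24 of 34 lower, 2 higher) and the proteasome (24 of 31 lower, 1 higher) had medians of -0.25 and -0.23, and library totals turned both to 24 and 26 higher with none lower. The proteasome subunit that rose was Psmd8, from 141 to 264 CPM (0.99 ± 0.062, edgeR adjusted p = 4.7e-21). Cytosolic ribosomal proteins were higher in 45 of 59 cases and lower in 1 (median 0.25). Under library totals all 59 were higher. Many ribosomal protein genes have processed pseudogenes that may take part of their reads. NAD genes fell in 14 of 19 and rose in none (6 higher and 9 lower under library totals), and Nnmt, which methylates nicotinamide, fell from 119 to 19.1 CPM (-2.61 ± 0.16, edgeR adjusted p = 7.3e-18). Blood cell genes fell in 7 of 9 cases, with the β-globin gene Hbb-bs going from 878 to 434 CPM, and the platelet factor Pf4 rose.

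Most of the larger changes held around the day. Of the 8612 genes called, 6182 (71.8% of them, 39.8% of all genes) kept one direction at all 6 ZTs, 3308 higher (21.3%) and 2874 lower (18.5%), where 41.5% of all genes tested did so whether called or not. Among the 3021 genes called with a change of at least 1 on the log2 scale, 2559 (84.7%) did. With 4 livers per diet at a single ZT, between 2011 (12.9%, at ZT6) and 2365 genes (15.2%, at ZT10) were higher and between 1844 (11.9%, at ZT2) and 2121 (13.6%, at ZT10) lower, and 1494 genes (9.61%) were called at every one of the 6, 815 (5.24%) of them higher at all 6, 677 (4.35%) lower at all 6 and the other 2 in mixed directions. That number was 966 without the 11 libraries whose clock genes lay nearer the other genotype, and 1331 without the 4 that did so on both gene sets. All 20 lowered sterol genes, 26 of the amino acid catabolism genes called, 27 macrophage, 34 matrix and 71 respiratory chain genes were among those with one direction. Macrophage genes had list medians between 2.06 and 2.53 at the single ZTs, and sterol genes between -3.04 and -2.06. Cell cycle genes varied more, with medians between 0.784 and 2.23 and 19 genes in one direction, and none of the 5 clock genes called for level kept one direction.

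The change itself differed between ZTs in 857 genes (5.51%), of which 563 were also called for level and 230 kept one direction at all 6 ZTs. The smallest p-values belonged to Tef, Denn2b and Ciart. Tef, a clock-controlled PAR bZIP factor, went from 18.8 ± 4.04 (SD, n = 4) to 51.6 ± 18.1 CPM at ZT2 with the diet, and from 148 ± 14.9 to 48.9 ± 15.2 CPM at ZT10. Its log2 fold change was 1.45 at ZT2 and negative from ZT10 on, down to -2.1 at ZT22 (edgeR adjusted p for diet by ZT = 2.1e-13). Ciart, a repressor within the clock, went from 3.2 at ZT2 to -4.66 at ZT10. Denn2b, an activator of a Rab GTPase, went from -0.97 at ZT6 to 2.49 at ZT14. Leaving out 1 replicate per group reduced the number to between 249 and 495, and leaving out the 11 libraries to 505.

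The clock genes kept their rhythm on the diet but peaked earlier. Of 20 core clock genes, 16 were rhythmic on both diets, where rhythmic means an unadjusted p under 0.01 in a cosinor F test, JTK_CYCLE or edgeR's test of a cosine and a sine. All 16 also had an adjusted cosinor p under 0.05 on each diet, peaked earlier in cdHFD and had an adjusted phase p under 0.05 in the CircaCompare model fitted to variance-stabilized values. The median phase difference was -4.7 h, from -6.77 h for Clock to -2.61 h at the other end, and 12 of the 16 lay between 3 and 6 h. It was -4.65 h without the 11 libraries nearest the other genotype on clock genes and -4.46 h without the 4. Core clock genes were called in the joint test of diet with cosine and sine in 15 of 20 cases, where 954 of all genes (6.14%) were.

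In the activating arm, Arntl (Bmal1; chr7:113178471-113314126) averaged 20.1 ± 4.46 CPM in chow at ZT2 and 4.78 ± 2.39 CPM in cdHFD, and at ZT14 2.7 ± 2.27 and 12.8 ± 6.17 CPM. Its fitted peak moved from ZT23.4 to ZT18.7, a difference of -4.66 ± 0.51 h (SE; adjusted p = 3.9e-09 for phase). Its partners Clock and Npas2 shifted by -6.77 ± 1.02 h and -6.02 ± 1.32 h. Among the repressors, Nr1d1 (REV-ERBα) averaged 9.77 ± 6.17 CPM at ZT2 in chow against 57.1 ± 10.2 CPM in cdHFD, and 44.8 ± 7.86 against 5.62 ± 2.38 CPM at ZT10. The peaks were at ZT8.1 and ZT4.1, a shift of -3.96 ± 0.54 h. Per1, Per2 and Per3 shifted by -4.44 ± 0.94 h, -3.85 ± 0.77 h and -4.8 ± 0.68 h, Cry1 by -3.95 ± 0.79 h and Nr1d2 by -4.6 ± 0.69 h. In the output arm, Dbp, which drives many hepatic rhythms, was at 58.8 ± 33.3 in chow and 170.5 ± 15.3 CPM in cdHFD at ZT6, and at 262 ± 50.9 and 45.9 ± 18.8 CPM at ZT10 (-4.74 ± 0.53 h, adjusted p = 7.6e-09 for phase). The other PAR bZIP factors Tef and Hlf moved by -5.17 ± 0.66 h and -5.83 ± 1.24 h, the counteracting Nfil3 by -3.57 ± 0.72 h, and Ciart and the protease gene Usp2 by -6.73 ± 0.8 h and -4.92 ± 0.84 h. Cry2 and Bhlhe40 were rhythmic in chow only, and Rora and Bhlhe41 on neither diet.

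**Figure D3:**
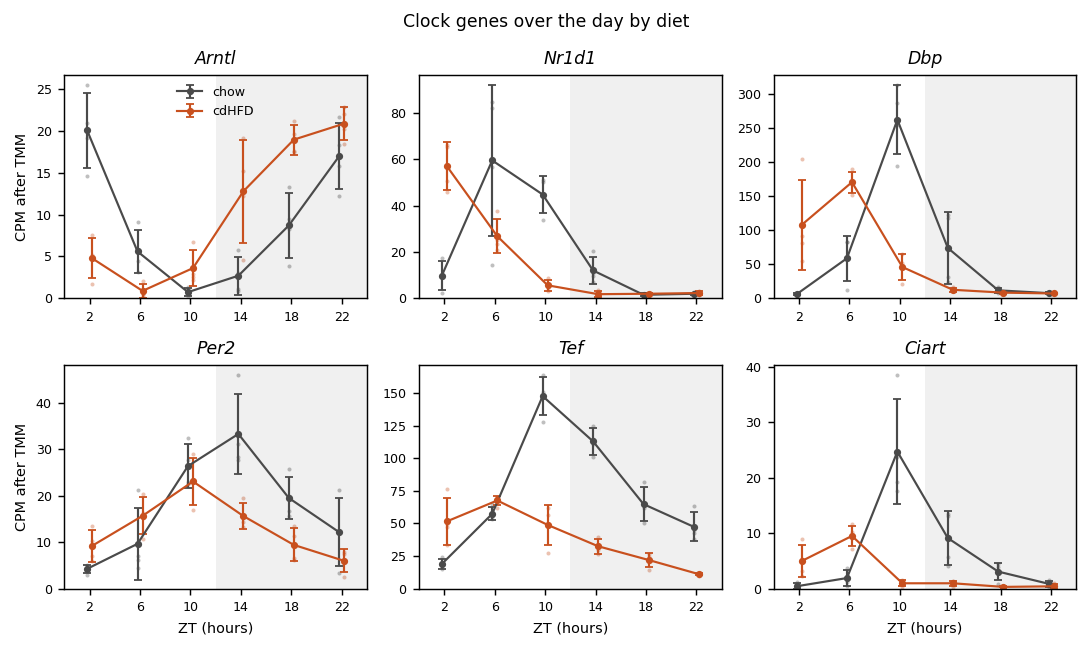
Mean level (CPM after TMM, y axis) of 6 clock genes at each ZT (x axis, hours, dark phase shaded) in chow and cdHFD, with SD bars over 4 livers and a small point per liver. In cdHFD each curve peaks earlier than in chow, and Dbp falls from its ZT6 value by ZT10 where chow is at its highest.

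No clock gene passed the test of amplitude. The median difference over the 16 genes was -0.18 on the variance-stabilized log2 scale, and 12 were lower. Levels averaged over the day were lower for Clock, Cry2, Rora, Tef and Hlf and higher for none. These 5 of 20 (25%) were near the 26.8% of all genes called lower, whereas 28.6% of all genes were called higher. Under library totals none of the 20 was lower and 2 were higher. Arntl itself had a log2 fold change of 0.15 ± 0.34 (edgeR adjusted p = 0.73) between the diets.

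Over all genes, 3493 (22.5%) were rhythmic in chow and 2945 (18.9%) in cdHFD, 1240 of them (7.98%) on both, 2253 (14.5%) in chow only and 1705 (11%) in cdHFD only. These classes come from separate tests, and the difference between diets passed in 377 (30.4%), 356 (15.8%) and 184 (10.8%) of them, and in 37 genes rhythmic on neither diet. Without the 11 libraries the number rhythmic on both was 755, and 1104 without the 4. Amplitudes were lower in cdHFD in 988 (19%) and higher in 171 (3.29%) of the 5198 genes rhythmic on at least 1 diet at an unadjusted p under 0.05, but only 47 (0.904%) passed adjustment. Among the genes rhythmic on both, the fitted amplitude was lower in 965 of 1240, and its median went from 0.401 to 0.305.

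For the 716 genes with an adjusted cosinor p under 0.05 on each diet, the median phase difference was -2.41 h with quartiles of -4.38 and -0.651 h. By more than 1 h, 494 were earlier and 68 later, while 154 were within 1 h. Of the 1240 genes rhythmic on both diets, 417 (33.6%) were earlier and 51 (4.11%) later at an adjusted phase p under 0.05, 468 (37.7%) in all, and 566 (45.6%) had an unadjusted phase p under 0.05. The shift varied with the time of the chow peak. It was largest in genes that peaked in chow at ZT0 to 4 (median -4.84 h, 55 genes) and ZT12 to 16 (-4.93 h, 49 genes), and smallest at ZT4 to 8 (-0.71 h, 74 genes). The 2 largest groups, with peaks at ZT8 to 12 (184 genes) and ZT20 to 24 (245 genes), had medians of -2.19 and -2.25 h.

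**Figure D4:**
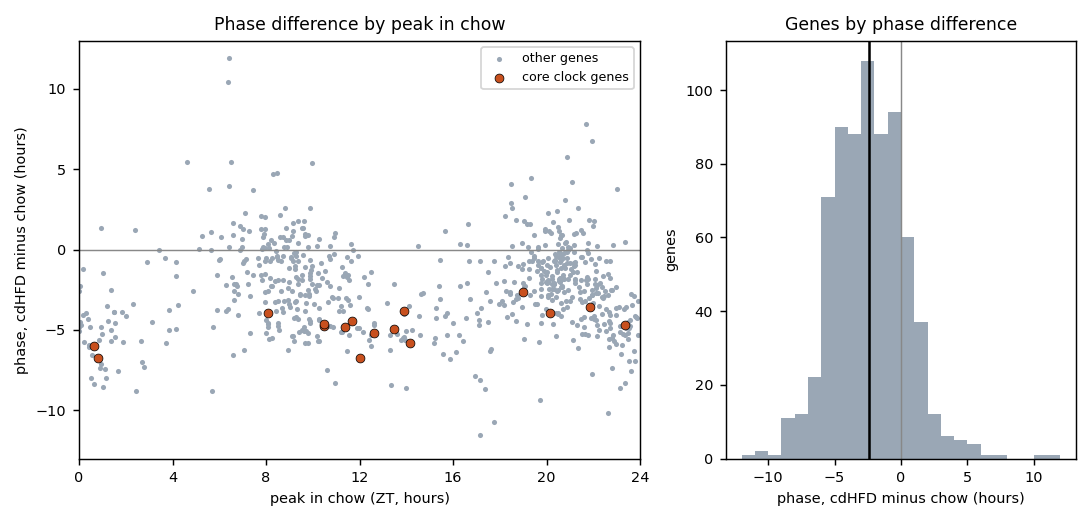
Left, phase difference (cdHFD minus chow, hours) of 716 genes with an adjusted cosinor p under 0.05 on each diet against their peak in chow (ZT, hours), with the 16 core clock genes marked. Right, the number of these genes by phase difference in bins of 1 h, with a black line at the median of -2.41 h. Clock genes lie between -6.77 and -2.61 h, and of all genes 494 lie more than 1 h earlier and 68 more than 1 h later.

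By function, circadian output and feeding-responsive genes had a median shift of -4.73 h over 14 such genes, choline, methionine and one-carbon genes of -5.01 h over 6, glucose genes of -3.79 h over 8 and amino acid catabolism genes of -3.78 h over 7. Nuclear respiratory chain genes had a median of -0.4 h over 9. Differences between these groups were not tested. The largest differences went in both directions. Fgf21 peaked at ZT6.4 in chow and ZT18.3 in cdHFD, nearly opposite times (11.9 ± 1.28 h, adjusted p = 3.8e-09 for phase), with 12.4 ± 7.2 and 47.1 ± 21.8 CPM at ZT6 and 1.45 ± 1.02 and 107 ± 48.5 CPM at ZT18. Gpt2, the mitochondrial alanine aminotransferase, moved by -11.54 ± 0.97 h, and Gclc, for glutathione synthesis, by 10.41 ± 1.27 h. Close to a full inversion, earlier and later cannot be told apart. Ctps of nucleotide synthesis, Rpa1 of DNA replication, Ppil1, Oga and Cpeb4 shifted by between -10.74 and -8.77 h. Thrsp moved by -5.81 ± 0.74 h, the uridine phosphorylase Upp2 by -6.33 ± 0.83 h, Tubb2a by -7.98 ± 1.04 h and Chka by -7.44 ± 0.99 h. In contrast, Cyp8b1 (-0.68 ± 1.4 h), Pck1 (-1.1 ± 1.17 h) and Ccnd1 (-0.23 ± 1.44 h) were rhythmic on both diets with a phase difference that did not pass the test, although the levels of all 3 changed.

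Of the 356 genes rhythmic in chow only whose difference between diets passed, 87 peaked at ZT4 to 8, 91 at ZT8 to 12 and 85 at ZT16 to 20. The median amplitude of these 356 genes was 0.424 in chow and 0.14 in cdHFD. They were selected for a rhythm in chow and none in cdHFD, so the lower cdHFD median follows from that selection. Prkd3, protein kinase D3, had the smallest p. It averaged 182 ± 15 CPM at ZT10 and 65.6 ± 11.6 CPM at ZT18 in chow, and 59.97 ± 4.89 and 60.3 ± 4.45 CPM in cdHFD, close to the ZT18 mean of chow at both times. The amplitude fell from 0.72 to 0.062 on the variance-stabilized scale (adjusted p = 2.1e-05 for amplitude; edgeR adjusted p for diet by cosine and sine = 7.8e-07). Slc25a47, a mitochondrial carrier of hepatocytes, went from 257 ± 26.3 CPM at ZT2 to 532 ± 51.9 CPM at ZT10 in chow, against 580.5 ± 128 and 447 ± 74.3 CPM in cdHFD, so that its amplitude was 0.74 and 0.12 (adjusted p = 0.012 for amplitude). The desmosomal cadherin Dsc2, Evi5, Gne of sialic acid synthesis and Tmem189 were in the same class. Trim54 and Eef1a2 had p-values of the same order but are muscle genes. Each was above 1 CPM in 3 chow libraries, all of which held over 10 CPM of the muscle actin Acta1, and 5 chow libraries and 1 cdHFD library were above that level. In cdHFD, Trim54 was above 1 CPM in 1 library, which was above that Acta1 level, and Eef1a2 in 3, of which 1 was. The part of muscle RNA in these 2 rhythms was not tested.

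Rhythms found in cdHFD only included those of the cell cycle. Of the 30 cell cycle genes 7 were rhythmic in chow and 29 in cdHFD, and 20 passed the test of diet with cosine and sine, where 6.14% of all genes did. Of the 8 genes of smallest p that were rhythmic in cdHFD only, 7 act in DNA replication or mitosis (Plk1, Ckap2, Nusap1, Tyms, Ccna2, Ube2c and Pbk), and the other was Mybpc2, a muscle gene above 1 CPM in 4 chow libraries that all held over 10 CPM of Acta1. Cyclin A2 (Ccna2) averaged 5.77 ± 1.48 CPM at ZT6 and 19.6 ± 3.03 CPM at ZT18 in cdHFD, against 3.73 ± 4.74 and 1.03 ± 0.7 CPM in chow (edgeR adjusted p for diet by cosine and sine = 3.5e-04). In chow, 1 liver at ZT6 reached 10.7 CPM. Polo-like kinase 1 (Plk1) went from 0.72 ± 0.384 to 5.99 ± 1.22 CPM in cdHFD.

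The 29 rhythmic cell cycle genes did not peak together in cdHFD. They spread from ZT7.47 to ZT19.4, with 2 genes between ZT4 and ZT8, 12 between ZT8 and ZT12, 5 between ZT12 and ZT16 and 10 between ZT16 and ZT20. The order, which was looked for after the values were seen, ran from replication licensing to mitosis. Cdt1 and Cdc6, which load the replicative helicase, peaked at ZT7.47 and ZT7.54, and the helicase subunits Mcm2 to Mcm7 between ZT8.17 and ZT10.5. The ribonucleotide reductase subunits Rrm1 and Rrm2 and thymidylate synthase (Tyms) peaked at ZT11.5, ZT14.3 and ZT15.1. Cdk1, Plk1 and Ccna2 followed at ZT17.1, ZT17.8 and ZT18.1, and Ccnb1, Ccnb2 and Cdc20, of entry to and exit from mitosis, at ZT19.2, ZT19.2 and ZT19.4. Mcm2 averaged 21.1 ± 7.09 CPM at ZT10 and 8.64 ± 1.23 CPM at ZT22. Amplitudes of the 29 genes had a median of 0.22 in chow and 0.613 in cdHFD and were higher in cdHFD in 27. The 29 genes were selected for a rhythm in cdHFD, which favours higher amplitudes there. Variance-stabilized amplitudes are also compressed at low counts, and these genes were lower in chow.

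**Figure D5:**
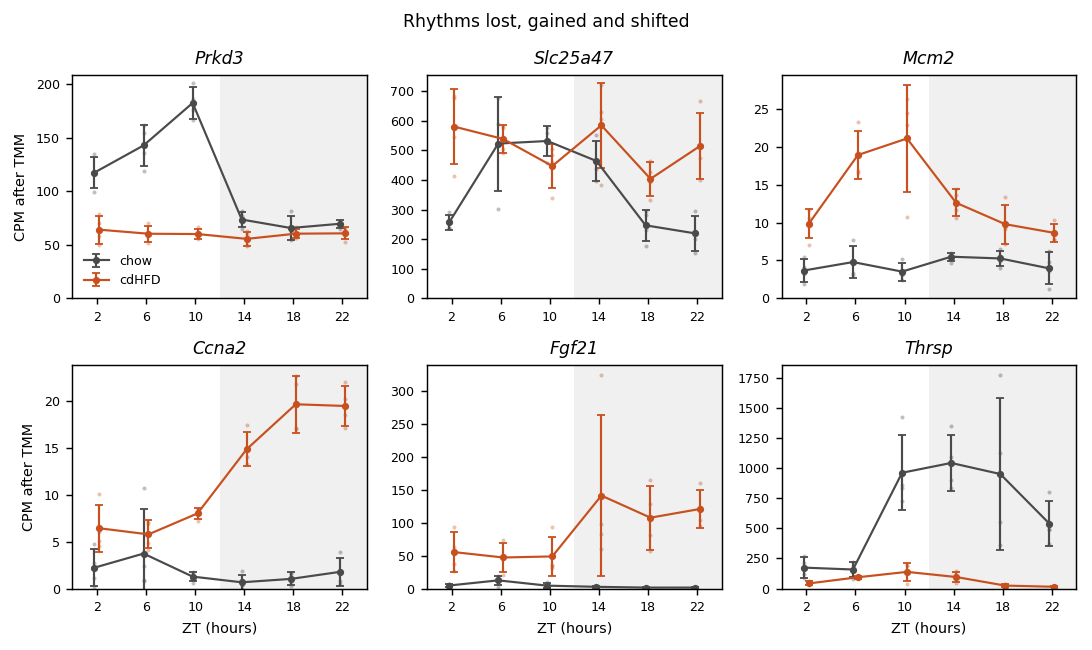
Mean level (CPM after TMM, y axis) at each ZT (x axis, hours, dark phase shaded) in chow and cdHFD of 6 genes, with SD bars over 4 livers and a point per liver. Prkd3 and Slc25a47 were called rhythmic in chow only. Mcm2 and Ccna2 peak at different times in cdHFD, at ZT10 and ZT18 by their means, and Fgf21 and Thrsp peak at different times on the 2 diets.

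The diet was also given to 24 Hep-Bmal1KO mice, whose own 24 chow livers serve as their controls. In these, 5015 genes (32.3%) were higher and 4568 (29.4%) lower. Of the genes called in Hep-Bmal1WT, 7406 were called in the same direction in Hep-Bmal1KO, which is 86% of the Hep-Bmal1WT and 77.3% of the Hep-Bmal1KO calls, and 16 went the opposite way. Over 15548 genes the Pearson correlation of both sets of log2 fold changes was 0.91, a description across genes, which are not independent replicates. The difference between genotypes passed in 334 genes (2.15%), a number that rose to 722 without the libraries whose clock genes lay nearer the other genotype and 779 without those nearer on both gene sets. Sterol synthesis held 12 of them: the list median was -2.62 in Hep-Bmal1WT and -3.22 in Hep-Bmal1KO. Fdft1, squalene synthase, had the smallest p, at -2.31 ± 0.1 in Hep-Bmal1WT and -3.21 ± 0.094 in Hep-Bmal1KO (edgeR adjusted p of the difference = 1.9e-05). Lpl had a log2 fold change of 2.38 in Hep-Bmal1WT against 0.22 ± 0.2 in Hep-Bmal1KO (edgeR adjusted p of the difference = 1.1e-04), and Gstm3 one of 1.5 against -0.36 ± 0.19 (edgeR adjusted p = 4.5e-05). Trem2, Lcn2 and Igf1 had log2 fold changes of 5.21, 4.71 and -1.31 in Hep-Bmal1KO, and their differences between genotypes did not pass the test.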

How the data were processed

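Liver RNA of 96 mice was sequenced from 3′ ends by BRB-seq, in which barcoded samples are pooled early (MERCURIUS kit, NovaSeq), and the 48 Hep-Bmal1WT libraries were used here. The authors deposited raw read counts for 55487 genes, made with STAR, HTSeq and featureCounts on mm10 per the labels and methods. Versions, the annotation release and whether molecular identifiers were collapsed are not given in the sources used here. Reads not assigned to a gene (25.3 to 39.9% in chow and 22.6 to 29.2% in cdHFD libraries) were left out. Each mouse was 1 replicate, and 3′ counts cannot separate near-identical gene copies.

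The 15548 genes with at least 100 counts over 96 libraries were tested with edgeR 4.0.16 in R 4.3.3 (quasi-likelihood F test, TMM, ZT as a 6-level factor, Benjamini-Hochberg adjustment over all genes at 0.05). The diet contrast at each ZT came from a fit of 12 groups, and the differences by ZT, sex, genotype (96 libraries) and cosine and sine from interaction terms. Rhythms were tested within each diet by a cosinor F test and JTK_CYCLE on variance-stabilized values (DESeq2 1.42.0) and by edgeR with a cosine and a sine of 24 h. Mesor (the rhythm-adjusted mean), amplitude and phase differences were fitted with CircaCompare's model by linear least squares, and their standard errors were propagated by the delta method. Lists are described by counts and medians without a test. Values after ± are standard errors for log2 fold changes, phases and differences, and standard deviations for CPM. The tests were tried on simulated counts with 200 genes changed in level, 200 shifted in phase and 200 given a rhythm in cdHFD. The outcome is not reported here. Levels were changed equally in both directions, so the simulation does not bear on the dependence on scaling. Gene positions are RefSeq's for GRCm38.p6 (14791 genes matched).

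Each library's clock genes, and 20 other genotype-dependent genes, were checked for whether they lay nearer the mean of the other genotype. Samples and gene lists were chosen with earlier results of these data known. The genes named are, per list, up to 4 of smallest p in each direction and 3 of highest level, the 12 largest changes each way with a mean of at least 5 CPM, the clock genes, the 8 of smallest p in each rhythm class, the 8 largest phase differences, the 3 of smallest p per interaction and the cell markers; some of these genes are not reported here. Other cell cycle genes were named after their values were seen. Alternatives were other scalings, filters, tests and transformations, thinned counts, sex as a covariate, 1 sex alone and subsets of libraries.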

Additional observations from a re-analysis of the deposited data

Results flagged for a closer look

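Among 144 groups of 4 livers tested with Dixon's criterion (12 genes, each at 6 ZTs on 2 diets), 8 held 1 liver far from the other 3, and so did 1 of 12 groups of library totals. Chance alone marks about 1 in 20 groups. In cdHFD at ZT10, replicate 3 stood apart for Arntl at 6.78 CPM and for Fgf21 at 93.65 CPM, and this library also lay nearer Hep-Bmal1KO on clock and other genes. At ZT14 in cdHFD, replicate 2 was at 323.1 CPM for Fgf21, the highest of all 48 livers, and at 3.72 CPM for Nr1d1. In chow, Nr1d1 in replicate 2 at ZT22 was at 2.78 CPM, Per2 in replicate 2 at ZT6 at 21.2 CPM, Prkd3 in replicate 4 at ZT22 at 64.3 CPM and Ccna2 in replicate 1 at ZT6 at 10.74 CPM. Chow ZT6 replicate 2 is 1 of the 4 libraries nearer Hep-Bmal1KO on both gene sets. The cdHFD ZT10 replicate 1 library had 6470269 counts, which was apart from the other 3 of its group but inside the range of all cdHFD libraries.

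The diet effect differed between ZTs in 857 genes and in its cosine and sine terms in 954. At single ZTs the log2 fold change of Tef ran from -2.1 to 1.45, that of Denn2b from -0.97 to 2.49 and that of Ciart from -4.66 to 3.2. It differed between the sexes in 453 genes (2220 at an unadjusted p under 0.05), with male minus female differences of -4.73 for Gm4956, -5.06 for Cyp4a12a and -2.29 for Gstp1 on the log2 scale. Between genotypes it differed in 334 genes (2392 at an unadjusted p under 0.05). The Hep-Bmal1KO minus Hep-Bmal1WT differences of smallest p were -0.898 for Fdft1, -1.1 for the organic ion transporter gene Slc22a15 and -1.15 for the glutathione transferase gene Gstm6.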

How the results depend on the processing

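Of 190 alternatives run on counts and medians, 163 stayed within 1.5 times the reported value or within its error. Between 6545 (females alone) and 11200 genes (library totals) were called for level, against 8612, and between 5026 and 6200 of them kept one direction at all 6 ZTs, against 6182. Library totals alone moved the level calls to 9954 higher and 1247 lower. Counts of rhythms moved with the number of libraries, the test and the threshold. With 1 of 4 replicates left out of every group, diet by ZT gave 249 to 495 genes, diet by cosine and sine 332 to 521, rhythms on both diets 666 to 777, amplitude differences 771 to 903 and phase differences 289 to 389, each with fewer samples. Level calls were then 7587 to 7876, and the clock phase difference -4.96 to -4.26 h. Without the 11 libraries whose clock genes lay nearer the other genotype, 966 genes were called at each ZT alone, 505 for diet by ZT, 621 for diet by cosine and sine and 755 as rhythmic on both diets, also with fewer samples. Diet by genotype instead rose to 722, and to 779 without the libraries nearer on both gene sets, a setting chosen after seeing the data. The cause was not tested. JTK_CYCLE alone gave 638 genes rhythmic on both diets and 353 phase differences, and adjusted thresholds for rhythm and amplitude together 48 amplitude differences; the cause was not tested.

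Of 222 named genes, 171 kept their call and direction under every alternative run on them. Under library totals, which shift all genes upward, the log2 fold change turned positive for Apoe (0.219), B2m (0.197), Bhlhe40 (0.417), Clock (0.126), Cpeb4 (0.0869), Evi5 (0.0579), Fn1 (0.0697), Gclc (0.235), Gpr182 (0.101), H2-K1 (0.218), Ier2 (0.0862), Ppil1 (0.356) and Rora (0.186). In females alone it was 0.847 for Gm4956, 0.724 for Gstp1 and 2.13 for Mup20. The muscle genes Acta1 and Mybpc2 turned to 0.56 and 0.141 in males alone and to 0.0577 and 0.203 without the 11 libraries. No paired analysis was possible because the labels give the mice no replicate numbers that could pair them across groups. The shallowest library limits low genes to about 1.61 CPM.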

Other observations

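Several groups outside the account above had no common direction, where 28.6% of all genes were higher and 26.8% lower. Of 20 iron genes 7 rose and 8 fell (13 and 4 under library totals). Slc40a1 (ferroportin), the iron exporter, rose (0.51 ± 0.08, edgeR adjusted p = 2.0e-07), and transferrin receptor 2 (Tfr2), a hepatocyte sensor of iron, fell from 198 to 94.5 CPM with separate ranges (-1.02 ± 0.049, edgeR adjusted p = 6.0e-26). Of 13 insulin receptor and FOXO genes 5 rose and 6 fell, and 8 rose and none fell under library totals. The insulin receptor (Insr) fell (-0.57 ± 0.065, edgeR adjusted p = 3.0e-11), and Trib3, an inhibitor of AKT, rose from 3.65 to 24.9 CPM (2.56 ± 0.34, edgeR adjusted p = 1.5e-08).

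For triglyceride synthesis and VLDL assembly, 4 of 16 genes rose (25%) and 8 fell (50%), against 8 and 4 under library totals. Agpat1 and Mogat1 of glyceride synthesis were higher (0.86 and 0.78 on the log2 scale). Mogat1 averaged 1.29 ± 0.831 CPM in chow males and 1.29 ± 0.775 CPM in cdHFD males, and 0.776 ± 0.736 and 2.19 ± 1.06 CPM in females. These values are near the 1.61 CPM limit of the shallowest library. Gpam, the first step from glycerol 3-phosphate, and Mttp, which lipidates apolipoprotein B, were lower (-0.86 ± 0.076, edgeR adjusted p = 5.6e-15 and -0.59 ± 0.057, edgeR adjusted p = 1.2e-13). Of 20 heat shock and cold-inducible genes 2 rose (10%), 5 fell (25%) and 13 were not called. Both shares were below those of all genes (28.6% higher and 26.8% lower). Under library totals 15 rose and none fell. The RNA-binding protein Rbm3, induced by cold, was 1 of the 2 that rose under TMM (1.21 ± 0.17, edgeR adjusted p = 4.5e-08). Among glucocorticoid-responsive genes 5 of 17 rose (29.4%) and 8 fell (47.1%). Sult1e1, the estrogen sulfotransferase, went from 0 to 0.793 CPM (2.46 ± 0.47, edgeR adjusted p = 1.0e-05), and Hsd11b1, which regenerates active glucocorticoid, from 759.8 to 259.7 CPM (-1.59 ± 0.11, edgeR adjusted p = 5.0e-17).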
